A study of Mus musculus with 24 samples.

Results

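The receptors for IL-18, IL-33 and IL-1 were followed through 5 genes of the IL-1 receptor family: Il18r1, Il18rap, Il1rl1, Il1r1 and Il1r2. They were 5 of the 20031 genes named on the arrays and were measured by 8 of the 55681 probes. The genes were taken by name, and they were chosen by their Flavopiridol and JQ1 changes in Th1 and Th2 cells, which were known from earlier work on these arrays. Those drug changes are therefore given below as a description, with no test.

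The study hybridised 24 Agilent mouse arrays in 2 colours, with a single array per condition. Th1 cells were on 14 of them and Th2 cells on 10. All cells were differentiated in vitro from T cells of female C57BL/6 mice and were either left unstimulated or reactivated. They received DMSO as vehicle, JQ1 at 50 or 500 nM, or Flavopiridol at 1 or 10 µM for 6 hr. A 24 hr set of Th1 cells covered the vehicle and the higher JQ1 dose. For the Th2 DMSO arrays 24 hr stood in one label and 6 hr in another, so the time of these arrays was unclear. JQ1 is a BET bromodomain inhibitor, and Flavopiridol inhibits P-TEFb, the kinase that releases RNA polymerase II into elongation. Every array carried naive CD4+CD62L+CD25-CD44lo T cells of lymph nodes and spleens as the Cy5 reference, with no dye swap. A level below is the log2 ratio of the treated cells (Cy3) to these naive cells, and a change is a difference between such ratios. The series had 1 biological replicate, so arrays of a cell type may be portions of 1 culture.

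IL-18 binds the chain encoded by Il18r1 and signals once the chain of Il18rap joins it, and in Th1 cells IL-18 acts with IL-12 to raise interferon-γ. IL-33 binds ST2, the product of Il1rl1, together with the shared chain Il1rap. ST2 is best known from Th2 cells, regulatory T cells, mast cells and innate lymphoid cells, and a shorter transcript of Il1rl1 encodes a secreted decoy. Il1r1 encodes the signalling receptor for IL-1, and Il1r2 encodes a decoy receptor that binds IL-1 without signalling. In the RefSeq annotation the 5 genes lie next to each other on mouse chromosome 1, with Il1rl2, the receptor gene for IL-36, between Il1r1 and Il1rl1. The Il1rl2 probe was not well above background on any array.

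RefSeq start-site windows were at hand for 5 of the 5 genes, with 9 windows in all. The sequences of Il1rl1, Il18r1 and Il18rap are shown because the drug changes of the IL-18 receptor chains are set against those of Il1rl1 below, and both Il1rl1 windows are shown because transcripts of this gene begin at separate places. Each sequence is the 250 bases before an annotated start site on the plus strand of GRCm38.p6, 5′ to 3′. Capitals mark matches, on either strand, to 4 motifs. The T-box half-site searched was AGGTGT. The GATA site searched had the letters AGATAA. For AP-1 the search used TGANTCA, where N is any base. The core of NFAT sites was searched as TTTCC.
Il1rl1, upstream start, chr1:40429320-40429569: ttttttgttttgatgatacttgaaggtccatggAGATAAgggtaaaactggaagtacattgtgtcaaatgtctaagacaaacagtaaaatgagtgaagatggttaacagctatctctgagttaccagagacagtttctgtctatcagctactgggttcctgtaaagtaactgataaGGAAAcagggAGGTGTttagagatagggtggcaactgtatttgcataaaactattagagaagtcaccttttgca
Il1rl1, downstream start, chr1:40439379-40439628: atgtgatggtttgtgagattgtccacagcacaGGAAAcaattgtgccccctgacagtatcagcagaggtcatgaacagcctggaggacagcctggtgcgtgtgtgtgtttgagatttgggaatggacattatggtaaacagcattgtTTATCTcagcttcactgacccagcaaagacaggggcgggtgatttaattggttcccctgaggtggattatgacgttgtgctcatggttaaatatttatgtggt
Il18r1, first of 3 windows, chr1:40465302-40465551: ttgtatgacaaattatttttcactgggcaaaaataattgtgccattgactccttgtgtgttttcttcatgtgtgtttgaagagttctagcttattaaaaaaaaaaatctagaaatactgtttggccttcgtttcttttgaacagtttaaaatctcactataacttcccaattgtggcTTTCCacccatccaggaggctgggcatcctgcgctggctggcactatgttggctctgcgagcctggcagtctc
Il18rap, chr1:40515112-40515361: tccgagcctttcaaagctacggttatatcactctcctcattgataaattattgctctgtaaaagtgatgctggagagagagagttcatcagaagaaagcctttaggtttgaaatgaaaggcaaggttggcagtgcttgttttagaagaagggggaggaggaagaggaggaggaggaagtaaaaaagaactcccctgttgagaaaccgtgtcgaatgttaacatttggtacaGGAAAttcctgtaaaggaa
The upstream Il1rl1 window held 1 T-box half-site, 1 GATA site and 1 NFAT core. The downstream window held 1 GATA site and 1 NFAT core. The windows of Il18r1 and Il18rap held 1 NFAT core each and no match to the other motifs. Of 32851 windows of this length, 11.8% held the T-box half-site, 9.99% the GATA site, 6.75% the AP-1 site and 55.6% the NFAT core. No motif contains the letters of another, and a match is only a description of the sequence.

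The labels were set against marker genes before the receptors were read. On the DMSO arrays Gata3, the Th2 lineage factor, had levels of -0.52 to 0.55 in Th1 cells and 1.95 to 2.64 in Th2 cells, and Ccr4 0.90 to 1.82 and 2.82 to 3.08. The Th2 cytokines overlapped between the cell types, with Il4 at 0.12 to 4.50 in Th1 and 3.52 to 8.02 in Th2 cells, Il13 at 0.23 to 4.60 and 1.07 to 4.85, and Il5 at 0.03 to 0.68 and 0.09 to 3.66. Tbx21, which encodes T-bet, was at 5.41 to 6.35 in Th1 cells. In Th2 cells it was at -0.02 unstimulated and 4.64 reactivated, and Cxcr3, a Th1 chemokine receptor, was at -0.06 and 4.11. Of the other Th1 markers in Th2 cells, Ifng was at 0.65 and 6.20, Il12rb2 at -0.28 and -0.20, and Hlx was not well above background in either state. So 3 of the 5 Th1 markers were at 4.11 or more on the reactivated Th2 DMSO array and 2 were not, which stands beside every Th2 value below. Of the mast cell and basophil markers, Cpa3 and Mcpt8 were above background on 0 of 24 arrays and Fcer1a on 1, while Kit was above background on 13 of 14 Th1 and 3 of 10 Th2 arrays. The mean log2 Cy3 signal of these 4 markers was 6.07 to 6.53 in Th1 and 6.00 to 6.39 in Th2 cells. Of the regulatory T cell markers, Foxp3 was above background on 17 of 24 arrays and Ikzf2 on 13. The mean log2 Cy3 signal of these 2 genes was 6.45 to 7.17 in Th1 and 6.38 to 7.22 in Th2 cells. Of the NK cell markers, Klrb1c was above background on 0 arrays, Ncr1 on 1 and Klra8 on 9, all of Th1 cells. The mean log2 Cy3 signal of these 3 genes was 6.03 to 6.58 in Th1 and 6.00 to 6.16 in Th2 cells. Cd8a was above background on 13 of 14 Th1 and 0 of 10 Th2 arrays, and the mean signal of Cd8a and Cd8b1 was 6.53 to 8.34 in Th1 and 6.20 to 7.02 in Th2 cells. The mean signal of 3 B cell markers was 6.61 to 7.84 in Th1 and 7.72 to 9.06 in Th2 cells. The part of other cell types in the receptor levels was not tested, and in whole cultures fewer cells of a type and less RNA per cell cannot be told apart.

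**Figure D1:**
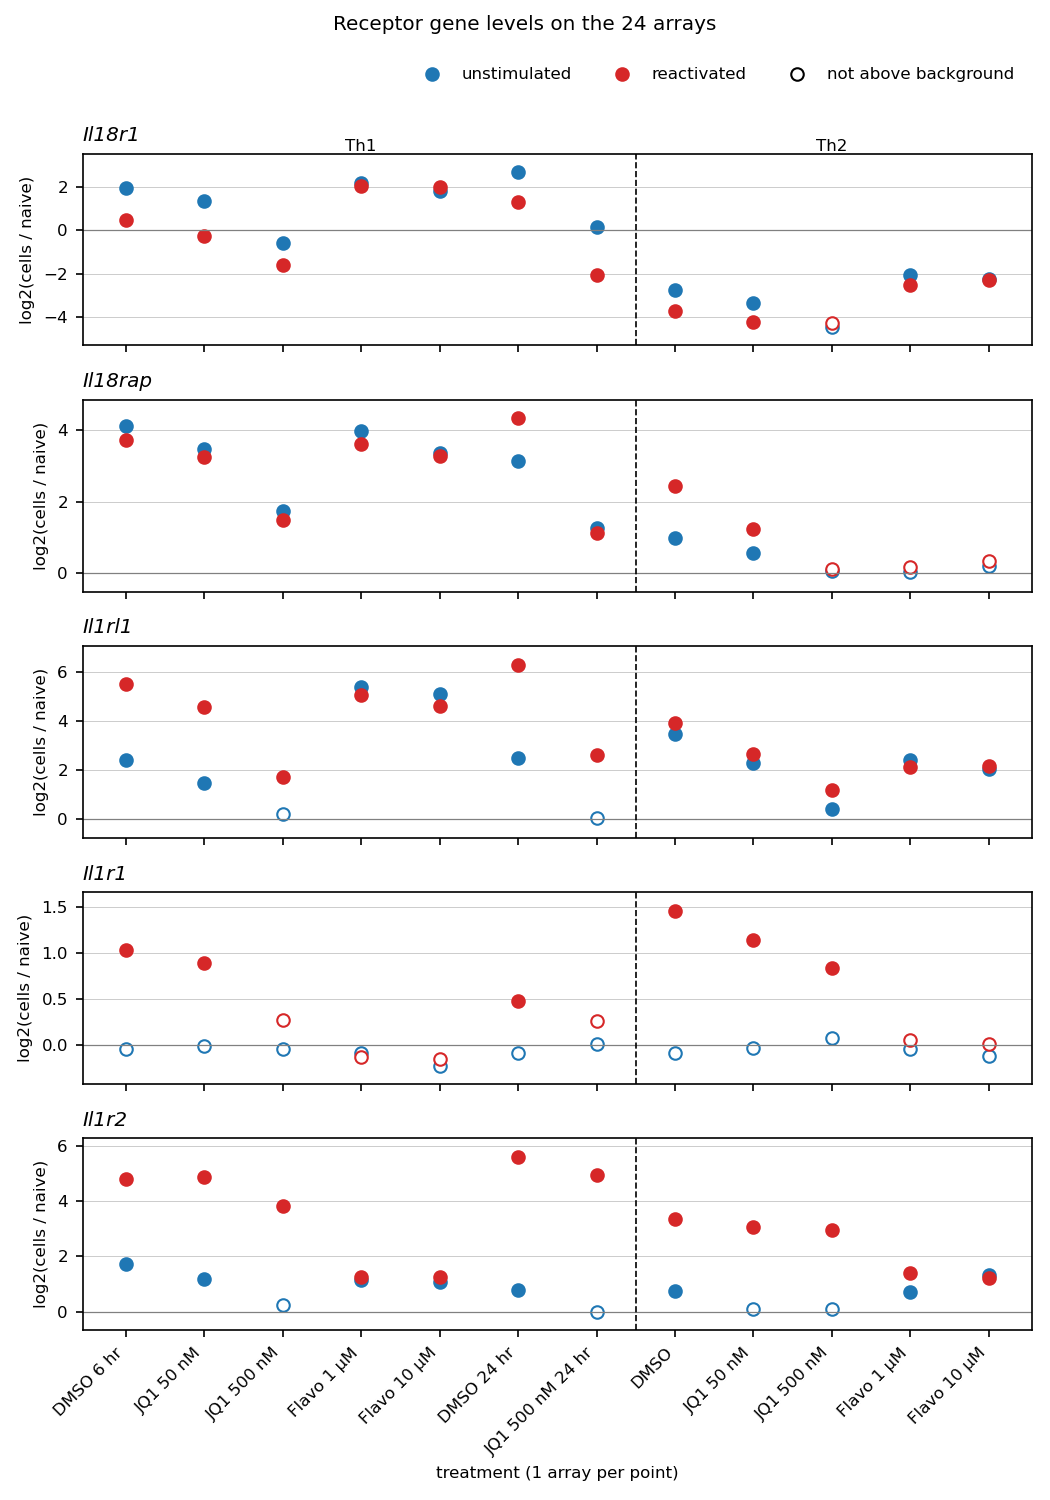
Levels of the 5 receptor genes on all 24 arrays. The y axis is the log2 ratio to naive T cells, the x axis the cell type and treatment, each point is 1 array, blue is unstimulated, red is reactivated, and open points were not well above background in Cy3. Il18r1 lies between -2.05 and 2.68 in Th1 and between -4.46 and -2.07 in Th2 cells, and Il1r2 lies between 2.95 and 5.60 on reactivated arrays without Flavopiridol and at 1.71 or lower on the others.

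Il18r1, the ligand-binding chain of the IL-18 receptor, had by its brightest probe the largest mean difference between Th1 and Th2 cells of the 5 genes. In Th1 cells with DMSO its level was 1.96 unstimulated and 0.49 reactivated at 6 hr, and 2.68 and 1.29 at 24 hr. In Th2 cells with DMSO it was -2.74 unstimulated and -3.73 reactivated. Th1 cells thus held more Il18r1 than naive cells, and Th2 cells held less. The naive signal itself was high and steady, with log2 Cy5 values of 10.54 to 10.82 over the 24 arrays. At matched treatment Th1 exceeded Th2 in 10 of 10 comparisons, by 4.14 ± 0.58 on the log2 scale (mean ± SD over 10 conditions), and in 2 of these the Th2 probe was not well above background. For DMSO at 6 hr in Th1 cells the difference was 26.0-fold unstimulated and 18.7-fold reactivated, with no replicate check and with the time of the Th2 arrays unclear. The second Il18r1 probe gave 6.70-fold unstimulated, and its mean difference over the 10 conditions was 2.13 ± 0.78 (SD), below that of Il18rap given below.

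With JQ1 Il18r1 was lower than with DMSO in all 4 combinations of cell type and state. With 50 nM the levels were 1.37 unstimulated and -0.25 reactivated in Th1 cells, and -3.37 and -4.23 in Th2 cells. With 500 nM at 6 hr they were -0.59 and -1.60 in Th1 cells, and at 24 hr 0.14 and -2.05. In Th2 cells with 500 nM the probe was not well above background in either state. The change at 50 nM was -0.62 ± 0.10 (mean ± SD over 4 combinations), and each of the 4 values lay between -0.75 and -0.50. At 500 nM the level in Th1 cells was 5.84-fold lower unstimulated and 4.26-fold lower reactivated at 6 hr, and 5.82-fold and 10.2-fold lower at 24 hr. In Th2 cells it was at least 2.93-fold lower unstimulated and at least 1.45-fold lower reactivated. These Th1 comparisons were made within 1 slide each, and the Th2 JQ1 arrays lay on another slide than their controls.

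Flavopiridol gave a different picture. In unstimulated Th1 cells Il18r1 was at 2.19 with 1 µM and 1.83 with 10 µM, against 1.96 with DMSO. In reactivated Th1 cells it was at 2.04 and 2.01, against 0.49. The reactivated cells thus stood near the level of unstimulated cells, 2.92-fold and 2.87-fold above DMSO. In Th2 cells the levels were -2.07 and -2.26 unstimulated and -2.51 and -2.30 reactivated, so the reactivated cells stood 1.23 and 1.43 above DMSO on the log2 scale. All Flavopiridol arrays lay on other slides than their DMSO controls, and slide and drug cannot be told apart there.

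These Flavopiridol values depended on the scaling of the arrays. The share of probes above background in Cy3 was 35.5% to 41.5% with Flavopiridol, 43.8% to 51.1% with JQ1 and 48.8% to 52.0% with DMSO. The median change over 12436 genes at 10 µM was -0.22 with loess, -1.06 with centring on the median, -1.65 with centring on the spike-in RNA and -1.35 where loess was followed by a spike-in shift. With spike-in centring the Il18r1 change at 10 µM became -1.31 in unstimulated Th1 cells and -1.09 in reactivated Th2 cells, so the direction in the latter turned. In unstimulated Th2 cells the change ranged from -1.41 to 0.91 at 1 µM and from -1.72 to 0.64 at 10 µM over the alternatives. In reactivated Th1 cells it stayed above DMSO under all 8 alternatives, from 0.65 to 1.72 at 1 µM and from 0.44 to 1.66 at 10 µM. With loess Il18r1 thus stood above DMSO in reactivated cells, and in Th2 cells this held only with scalings that do not use the spike-in RNA or the median.

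The second Il18r1 probe, named for another transcript record, gave levels of 2.20 and 1.59 in Th1 cells with DMSO at 6 hr. With 500 nM JQ1 it was at 0.25 and -0.00, with 1 µM Flavopiridol at 2.68 and 2.49, and with 10 µM at 2.20 and 2.40. As with the brighter probe, both states were lower with 500 nM JQ1 than with DMSO, and reactivated cells were higher with Flavopiridol. In unstimulated cells the order of DMSO and 10 µM Flavopiridol differed between the probes. The second probe was above background on 14 of 24 arrays, and on 1 of the 10 Th2 arrays.

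Il18rap, the signalling chain of the same receptor, was also a Th1 transcript. Its levels in Th1 cells with DMSO were 4.14 unstimulated and 3.72 reactivated at 6 hr, and 3.15 and 4.34 at 24 hr. In Th2 cells with DMSO they were 0.98 and 2.43. Naive cells gave no Cy5 signal well above background on any array for Il18rap, Il1r1 and Il1r2, and on 4 of 24 for the brightest Il1rl1 probe, so the ratios of these genes are limited by the background of the naive channel. At matched treatment Th1 exceeded Th2 in 10 of 10 comparisons, by 2.60 ± 0.94 (mean ± SD over 10 conditions), and in 6 of these the Th2 probe was not well above background.

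With 50 nM JQ1 the Il18rap levels were 3.48 unstimulated and 3.26 reactivated in Th1 cells, and 0.55 and 1.25 in Th2 cells. With 500 nM they were 1.75 and 1.49 in Th1 cells at 6 hr and 1.27 and 1.12 at 24 hr, which is 5.25-fold and 4.69-fold below DMSO at 6 hr and 3.70-fold and 9.30-fold below at 24 hr. In Th2 cells with 500 nM the signal was not well above background, at least 1.55-fold lower unstimulated and at least 3.60-fold lower reactivated. Both chains of the IL-18 receptor were therefore lower with JQ1 in Th1 cells. With Flavopiridol the changes of the chains differed in both cell types. Unstimulated and reactivated Th1 cells had Il18rap levels of 3.998 and 3.62 with 1 µM and 3.37 and 3.28 with 10 µM, while on the 4 Th2 arrays the probe was not well above background. In reactivated Th2 cells this was at least 3.77-fold lower with 1 µM and at least 3.62-fold lower with 10 µM, whereas Il18r1 there was not lower with loess. In Th1 cells the small Il18rap changes with Flavopiridol had no settled sign, with -0.44 in reactivated cells at 10 µM and a range of -1.40 to 1.70 over the alternatives.

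Il1rl1 differed from both IL-18 receptor chains in that its level was not higher in Th1 than in Th2 cells in every condition. The brightest of its 3 probes is named for the record of the membrane form. Which transcripts each probe detects was not checked, since probe sequences were not used here. By this probe Th1 cells with DMSO were at 2.42 unstimulated and 5.51 reactivated at 6 hr, and at 2.48 and 6.29 at 24 hr. Th2 cells with DMSO were at 3.47 and 3.91. Unstimulated Th2 cells thus held 2.07-fold more Il1rl1 than unstimulated Th1 cells, and reactivated Th1 cells held 3.02-fold more than reactivated Th2 cells. Over the 10 matched conditions Th1 exceeded Th2 in 7, with a difference of 1.33 ± 1.60 (mean ± SD), a spread wider than the mean.

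With 50 nM JQ1 Il1rl1 was at 1.496 unstimulated and 4.55 reactivated in Th1 cells, and at 2.31 and 2.66 in Th2 cells. The 4 changes from DMSO lay between -1.25 and -0.92, a mean of -1.07 ± 0.16 (SD, 4 combinations). With 500 nM the probe was not well above background in unstimulated Th1 cells at 6 and at 24 hr, and reactivated Th1 cells were at 1.71 and 2.63. The level was lower by at least 4.41-fold at 6 hr and at least 4.62-fold at 24 hr in unstimulated cells, and by 13.9-fold and 12.7-fold in reactivated cells. In Th2 cells with 500 nM the levels were 0.40 and 1.18, or 8.42-fold and 6.64-fold below DMSO. By its brightest probe Il1rl1 had the largest mean change with 500 nM JQ1 of the 5 genes, -2.96 ± 0.66 against -1.96 ± 0.70 for Il18rap and -1.73 ± 0.85 for Il18r1 (SD over 4 combinations), although several of these values rest on probes near background. With the probes of each gene averaged the order turned, with Il1rl1 at -1.66 and Il18rap, which has 1 probe, still at -1.96.

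With Flavopiridol the Il1rl1 level was higher in one kind of cell and lower in the others. Unstimulated Th1 cells were at 5.38 with 1 µM and 5.08 with 10 µM, against 2.42 with DMSO, which is 7.78-fold and 6.31-fold. Reactivated Th1 cells were at 5.07 and 4.59, against 5.51. The unstimulated cells with drug thus stood near the level of reactivated cells without drug. Of 12480 genes above background on at least 1 of the arrays, 12473 had a lower change than Il1rl1 in unstimulated Th1 cells at 1 µM. At 10 µM it was 12434 of 12448. Il1rl1 was chosen on this change, so nothing is read from these ranks. Th2 cells were lower instead, at 2.42 and 2.05 unstimulated and 2.14 and 2.15 reactivated, with changes of -1.05 and -1.42, and of -1.77 and -1.76.

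The higher level in unstimulated Th1 cells kept its direction under every scaling tried. Over 8 alternatives the change was 1.57 to 3.99 at 1 µM and 1.14 to 3.62 at 10 µM. Foxp3, which marks regulatory T cells, was at 0.47 with either dose in these cells, against -0.67 with DMSO, where it was not well above background. Over all cells it was called higher with 10 µM by limma, at 1.06 ± 0.14 (adjusted p = 0.000421), with a sign that turned under another scaling, while the other regulatory T cell marker, Ikzf2, had a change of -0.35 ± 0.25 that did not pass (adjusted p = 0.273). Kit was lower, at -0.91 ± 0.28 (adjusted p = 0.0274). The part of regulatory T cells in the Il1rl1 level was not tested. The same arrays gave Il18r1 changes of 0.23 and -0.13 and Il18rap changes of -0.14 and -0.76.

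Counted over the 5 receptor genes, with 500 nM JQ1 4 were at least 2-fold lower in unstimulated Th1 cells, against 4.34% of all genes, and 3 in reactivated Th1 cells, against 6.35%. At 24 hr 3 were lower in each state, against 4.87% and 4.58%. In Th2 cells 2 were lower in each state, against 5.59% and 5.64%. At 50 nM the counts above 0 were 1 and 2 in unstimulated and reactivated Th2 cells, against 0.148% and 0.4%. Flavopiridol at 1 and 10 µM left 1 gene, Il1rl1, at least 2-fold higher in unstimulated Th1 cells, against 8.06% and 7.03% of all genes. In reactivated Th1 cells 1 was higher, Il18r1, against 10.2% and 10.6%, and 2 were lower by the measured ratios, Il1r1 and Il1r2, against 24.7% and 23.3%, although the bound for Il1r1 was under 2-fold. In unstimulated Th2 cells Il1rl1 was the 1 gene lower, against 23.9% and 20.1%. In reactivated Th2 cells Il18r1 was higher, against 11.8% and 11.4%, and the other 4 were lower, against 26.9% and 23.6%. These contrasts chose the genes, so nothing is read from the counts.

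**Figure D2:**
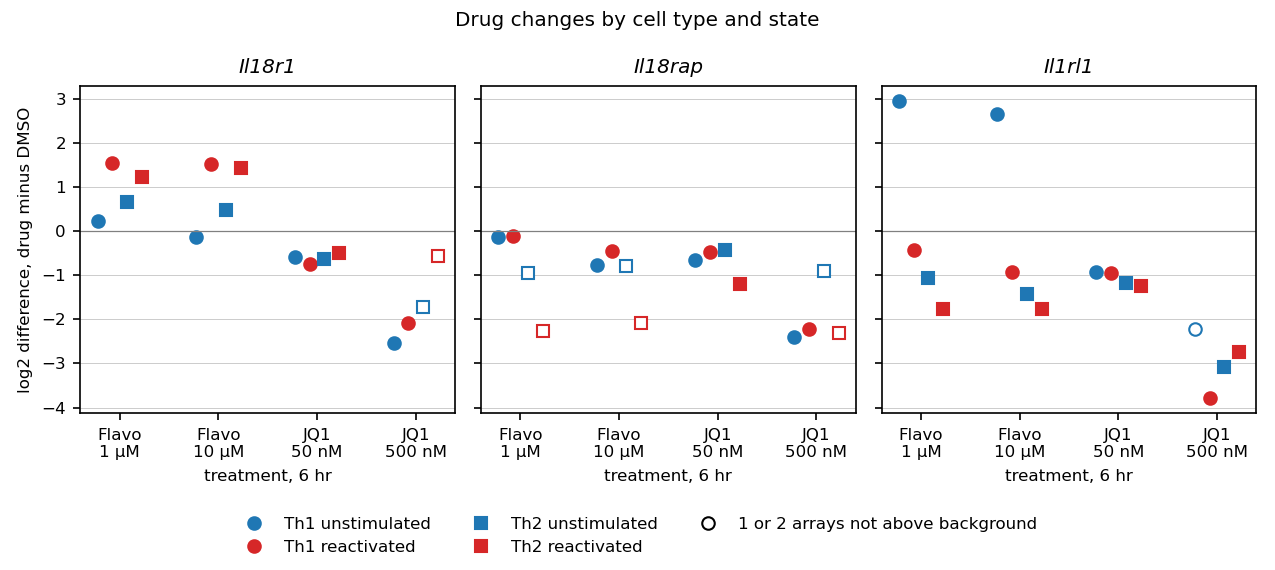
Changes with each drug at 6 hr for Il18r1, Il18rap and Il1rl1. The y axis is the log2 difference from DMSO, the x axis the drug and dose, circles are Th1 and squares Th2 cells, blue is unstimulated, red is reactivated, and open symbols had an array not well above background. With 500 nM JQ1 every symbol lies below 0, and with Flavopiridol Il1rl1 lies at 2.96 and 2.66 in unstimulated Th1 cells and below 0 elsewhere.

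The Il1rl1 probes did not all follow this pattern. The probe named for the soluble-form record was at 0.23 in unstimulated and 3.36 in reactivated Th1 cells with DMSO at 6 hr, at 0.20 and 5.25 at 24 hr, and at 0.44 and 2.59 in Th2 cells. It was above background on the 3 reactivated DMSO arrays and on 1 of the 3 unstimulated ones. In unstimulated Th1 cells with Flavopiridol the soluble-form probe was at 0.81 with 1 µM and at 0.36, not above background, with 10 µM. In reactivated Th1 cells it was at 0.57 and 0.58, against 3.36 with DMSO, and the probe was not well above background at 10 µM. The soluble-form probe was above background on 2 of these 4 Flavopiridol arrays, both with 1 µM. The third probe, dimmer and named for the membrane-form record, was at 1.16 and 0.89 in unstimulated Th1 cells with Flavopiridol, against -0.01 with DMSO, at least 1.74-fold and at least 1.53-fold.

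**Figure D3:**
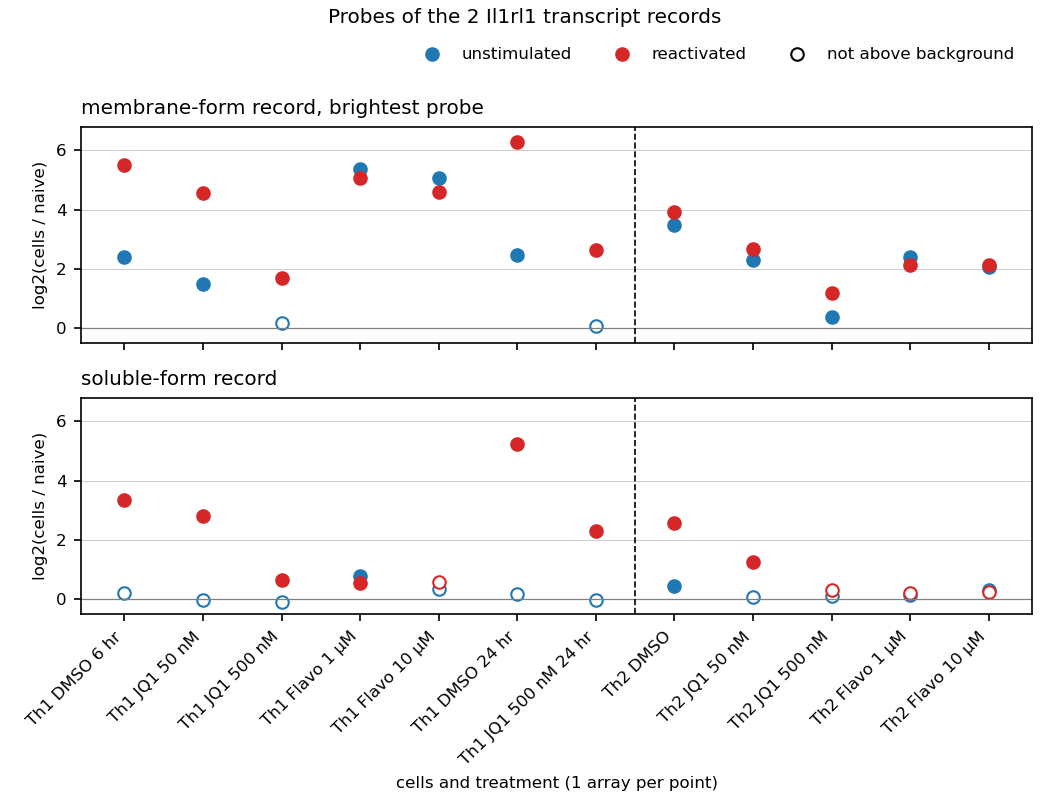
Levels of Il1rl1 by the probe for the membrane-form record (top) and the soluble-form record (bottom). The y axis is the log2 ratio to naive T cells, the x axis the cell type and treatment, each point is 1 array, blue is unstimulated, red is reactivated, and open points were not well above background. In Th1 cells with Flavopiridol the upper panel lies between 4.59 and 5.38, and in the lower panel 2 of the 4 points are open.

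The IL-1 receptor transcripts were highest on reactivated arrays. Il1r1, the signalling receptor, was above background on 6 of 24 arrays, all of reactivated cells. Its levels there were 1.03 and 0.48 in Th1 cells with DMSO at 6 and 24 hr, 1.46 in Th2 cells with DMSO, 0.89 and 1.13 in Th1 and Th2 cells with 50 nM JQ1, and 0.83 in Th2 cells with 500 nM JQ1. It was not above background on any of the 8 Flavopiridol arrays. In reactivated cells that was at least 1.63-fold and 1.69-fold lower than DMSO in Th1 and at least 2.22-fold and 2.14-fold lower in Th2 cells. Il1r2, the decoy receptor, was above background on 20 arrays. With DMSO it was at 1.71 and 4.78 in Th1 cells at 6 hr, at 0.77 and 5.60 at 24 hr, and at 0.75 and 3.37 in Th2 cells, unstimulated and reactivated in that order. Reactivated cells with JQ1 had Il1r2 levels of 4.86 and 3.05 with 50 nM and 3.82 and 2.95 with 500 nM at 6 hr in Th1 and Th2 cells, and 4.96 at 24 hr. With Flavopiridol Il1r2 was at 0.71 to 1.40 on all 8 arrays. In reactivated cells that was 11.4-fold and 11.6-fold below DMSO in Th1 and 3.92-fold and 4.45-fold below in Th2 cells.

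Reactivation is a contrast that did not choose the genes, and it was tested across all genes with limma over pairs of arrays of the same slide. The pairs come from 1 biological replicate, so these p-values measure only the spread between cell types, times and doses. Without drug, Il18r1 fell in 3 of 3 pairs, by 1.28 ± 0.14 on the log2 scale (SE, adjusted p = 0.00087), but without the pair as a block it did not pass (adjusted p = 0.602). Il1rl1 rose in 3 of 3 pairs, by 2.44 ± 0.59 (adjusted p = 0.0144), with 3.08 and 3.81 in Th1 cells and 0.44 in Th2 cells. Without the 6 hr Th1 pair its change was 2.12 and no longer passed (adjusted p = 0.0639). Il1r2 rose in 3 of 3 pairs, by 3.50 ± 0.40 (adjusted p = 0.000878). Il1r1 was not well above background in any unstimulated sample, with a mean level of -0.07 against 0.99 reactivated, at least 1.82-fold higher (adjusted p = 0.00536). It entered the fit only through the reactivated arrays, so this is given as a bound and not counted as a call. Il18rap had a change of 0.74 ± 0.35 that did not pass (adjusted p = 0.125), with 1.19 and 1.45 in 2 pairs and -0.42 in the 6 hr Th1 pair. Without that pair the change was 1.32 (adjusted p = 0.0032). Of the 4 genes above background in both states, 2 were called higher and 1 lower, against 50.9% of 12534 genes, 21.9% higher and 29% lower. With spike-in centring the split of all calls turned, from 2747 higher and 3637 lower to 3664 and 2130.

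Under JQ1 Il18r1 and Il1rl1 were called over 5 pairs, against 57.8% of 12662 genes, 24% higher and 33.8% lower. With spike-in centring 948 of the calls over all genes were higher and 2901 lower. Il18r1 fell by 1.11 ± 0.29 (adjusted p = 0.0131; 0.476 without the block), in 4 of 5 pairs, and the pair that differed was Th2 cells with 500 nM, where neither array was above background. Il1rl1 rose in 5 of 5 pairs, by 1.65 ± 0.38 (adjusted p = 0.00646; 0.0507 without the block), and Il1r2 in 5 of 5, by 3.61 ± 0.28 (adjusted p = 4.8e-05). The unstimulated Il1r2 probe was above background on 1 of these 5 arrays, so the size of its change rests on values at background. Il1r2 met the filter of 3 arrays only with the reactivated arrays, so it is not counted as a call. Il1r1 was above background on 3 of 5 reactivated and 0 of 5 unstimulated arrays, at least 1.32-fold higher (adjusted p = 0.00491). It too entered the fit only through reactivated arrays, and with spike-in centring it did not pass (adjusted p = 0.234). Il18rap had a change of 0.03 ± 0.14 (adjusted p = 0.889). The soluble-form Il1rl1 probe, fitted with all probes, was higher by 3.44 ± 0.48 in reactivated cells without drug. Only 1 of 3 unstimulated arrays was above background there, so the size of this change rests on values at background. Under JQ1 the probe was above background on 0 of 5 unstimulated and 4 of 5 reactivated arrays, at least 2.12-fold higher. In both fits it met the filter of 3 arrays only with the reactivated arrays, so neither change is counted as a call.

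Under Flavopiridol none of the 4 receptor genes that could be tested was called by limma over 4 pairs, against 0.128% of 10923 genes (0.11% higher and 0.0183% lower), and 1 of the 4, Il1rl1, had an unadjusted p below 0.05. The changes were -0.11 ± 0.11 for Il18r1 (adjusted p = 0.55), -0.05 ± 0.10 for Il18rap (adjusted p = 0.817), -0.25 ± 0.10 for Il1rl1 (adjusted p = 0.219) and 0.21 ± 0.13 for Il1r2 (adjusted p = 0.36). The difference between reactivation with and without Flavopiridol was not tested. Of the 4 pair changes of Il1r2, the highest was 0.69, below the lowest pair without drug, 2.62. The share of all genes with such a gap is not given here, and drug changes in each state chose the genes. Nothing is therefore read from this gap.

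**Figure D4:**
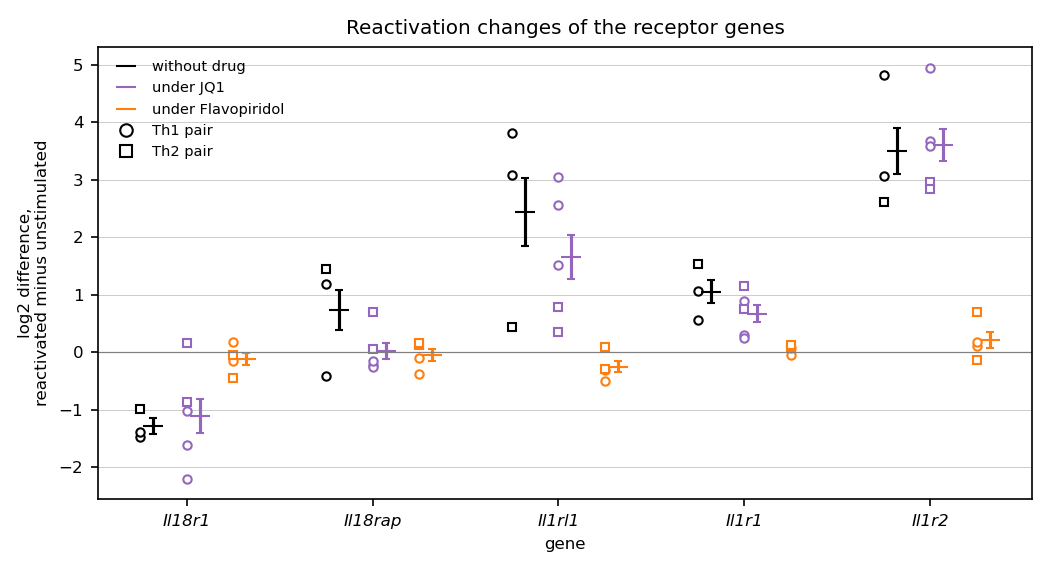
Change with reactivation for each receptor gene. The y axis is the log2 difference between reactivated and unstimulated cells, the x axis the gene, open symbols are pairs of arrays (circles Th1, squares Th2), and the bars are the fitted mean ± SE without drug (3 pairs), under JQ1 (5 pairs) and under Flavopiridol (4 pairs). Il1r2 lies between 2.62 and 4.95 without drug or with JQ1 and between -0.13 and 0.69 with Flavopiridol.

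Other genes of the pathway were taken from 7 lists by role, drawn up with earlier results of these arrays known, and were tested across all genes. Over all genes 48.9% of 12436 were called with 10 µM Flavopiridol, 15.4% higher and 33.5% lower. With 500 nM JQ1 47.6% of 12915 were called, 17.7% higher and 29.9% lower. Spike-in centring left 24 of 11296 calls higher for Flavopiridol and 110 of 5397 for JQ1. Among the ligands and soluble inhibitors, 4 of 11 were tested for reactivation without drug, and all were called higher, against 21.9% of all genes. Il33, which encodes the ligand of ST2, and Il1a were each above background on 3 of 6 arrays (adjusted p = 0.000219 and 0.00204), the least that let a gene be tested, so nothing is read from the count. Il18 rose by 1.35 ± 0.24 (adjusted p = 0.00438). Il18bp, the secreted IL-18 inhibitor, rose by 0.74 ± 0.13 (adjusted p = 0.00455). Under JQ1 2 of 3 tested rose, against 24% of all genes. Under Flavopiridol 0 of 2 were called by limma, against 0.128% of all genes, and 0 had an unadjusted p below 0.05. Of this list 3 of 4 tested genes were lower with 500 nM JQ1 than with DMSO, against 29.9% of all genes, among them Il18 at -1.15 ± 0.17 (adjusted p = 0.000281). Il33 and Il1a, also counted, were above background on 4 and 5 of 12 arrays, so nothing is read from this count. With 10 µM Flavopiridol Il18 was lower, at -1.46 ± 0.28 (adjusted p = 0.00288), and Il18bp was called higher, at 0.78 ± 0.25 (adjusted p = 0.0287), with a sign that turned under another scaling.

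The shared chain Il1rap, the partner of ST2 and of the IL-1 receptor, rose with reactivation by 2.58 ± 0.17 (adjusted p = 0.00023), and under JQ1 by 2.02 ± 0.20 (adjusted p = 0.00013). Sigirr, an inhibitory receptor of the family, fell by 1.07 ± 0.19 without drug (adjusted p = 0.00408) and was lower with 500 nM JQ1, at -0.86 ± 0.11 (adjusted p = 0.000139). Of the proteins that relay the signal next to the receptors, 16 of 17 were tested. Without drug 2 rose and 4 fell with reactivation, against 21.9% and 29% of all genes, and under JQ1 5 rose and 3 fell, against 24% and 33.8%, with 1 of the 5 turning sign under another scaling. Under Flavopiridol 0 of 15 were called by limma, against 0.128% of all genes, and 4 had an unadjusted p below 0.05. Against DMSO 6 were lower and 4 higher with 500 nM JQ1, and 3 of the 4 higher ones turned sign under another scaling. Irak1 (-0.98 ± 0.12, adjusted p = 0.000121) and the adaptor Myd88 (-0.67 ± 0.08, adjusted p = 7.88e-05) were among the lower. With 10 µM Flavopiridol 7 were lower, Peli1 (-2.10 ± 0.33, adjusted p = 0.000909) and the ubiquitin ligase Traf6 (-1.37 ± 0.13, adjusted p = 8.63e-05) the most, and 1 was higher, Irak1, whose sign turned under another scaling.

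The list of NF-kB and MAPK genes held 20 members. Without drug 12 of 20 rose with reactivation and 1 fell, against 21.9% and 29% of all genes, with Nfkb1 at 2.38 ± 0.20 (adjusted p = 0.000381), and under JQ1 15 of 20 rose and 1 fell, against 24% and 33.8%. Rel, counted in both, was above background on 3 of 6 arrays without drug and 5 of 10 under JQ1. Under Flavopiridol 2 of 18 rose, against 0.11% of all genes. They were the early-response genes Fos, at 5.05 ± 0.44 (adjusted p = 0.0243), and Jun, at 4.06 ± 0.39 (adjusted p = 0.0291). Fos was above background on 5 of the 8 arrays, and the 14 calls over all genes became 1 with Cy3 alone, 1 with the software's ratio and 1 to 67 when a pair was left out. By limma 8 of the 18 had an unadjusted p below 0.05, among them Nfkbia at 2.88 ± 0.41 (adjusted p = 0.0659). Against DMSO 13 of 19 were lower with 10 µM Flavopiridol, among them the feedback inhibitors Nfkbia (-4.84 ± 0.67, adjusted p = 0.000514) and Tnfaip3 (-3.70 ± 0.67, adjusted p = 0.00205), and 2 were higher, both with a sign that turned under another scaling. In the JQ1 comparison 7 of 20 were lower and 6 higher, 4 of the latter with a sign that turned. The feedback gene Tnfaip3 still rose with reactivation under JQ1, by 1.76 ± 0.32 (adjusted p = 0.00226).

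Of 12 genes that these receptors can induce in T helper cells, 9 rose with reactivation without drug, against 21.9% of all genes, 10 of 11 under JQ1, against 24%, and 0 of 10 under Flavopiridol by limma, against 0.11%. There 5 of the 10 had an unadjusted p below 0.05, and Tnf, at 3.41 ± 0.51 (adjusted p = 0.0678), and Ccl4, at 3.998 ± 0.89 (adjusted p = 0.119), had large changes over 4 pairs that did not pass. Csf2 rose by 6.48 ± 0.13 without drug (adjusted p = 2.57e-05) and by 5.95 ± 0.17 under JQ1 (adjusted p = 2.1e-06), where it was above background on 6 of 10 arrays, so the size of the latter rests in part on values at background. Also counted were Il6, above background on 3 of 6 arrays without drug, and Il5 and Il13, on 3 and 5 of 10 under JQ1. Nothing is therefore read from the counts of genes that rose. Against DMSO 6 of 12 were lower with 500 nM JQ1 and 1 higher, with Ifng at -0.82 ± 0.17 (adjusted p = 0.00252), and 5 of 11 were lower with 10 µM Flavopiridol, with Gadd45g at -2.68 ± 0.21 (adjusted p = 4.07e-05).

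The list of factors and cytokine receptors linked to these receptors in textbooks held 15 genes, and their part in the receptor levels was not tested. With reactivation 5 rose and 6 fell without drug, against 21.9% and 29% of all genes, and 6 rose and 4 fell under JQ1, against 24% and 33.8%. Under Flavopiridol 1 of 13 rose, against 0.11% of all genes, and it was Il12rb2, by 1.68 ± 0.07 (adjusted p = 0.00169). With 10 µM Flavopiridol Tbx21 was lower, at -3.11 ± 0.71 (adjusted p = 0.00679), as was Gata3, at -2.75 ± 0.20 (adjusted p = 2.77e-05), and 6 of 13 tested were lower. Il12rb2, a chain of the IL-12 receptor, was higher with loess, at 1.52 ± 0.42 (adjusted p = 0.016), but at 0.64 with median centring, 0.39 with a spike-in shift and 0.06 with spike-in centring. Il2ra was higher with loess, at 1.21 ± 0.28 (adjusted p = 0.00692), with a sign that turned under another scaling. Against DMSO 7 of 15 were lower with 500 nM JQ1, Stat4, the transducer of IL-12, the most at -1.17 ± 0.13 (adjusted p = 5.78e-05). The one gene called higher, Maf, turned sign under another scaling. Stat4 also fell with reactivation, by 1.25 ± 0.24 without drug (adjusted p = 0.00618) and by 1.52 ± 0.15 under JQ1 (adjusted p = 0.000133), as did Runx3, by 1.34 ± 0.22 (adjusted p = 0.00362) and 0.85 ± 0.12 (adjusted p = 0.000512).

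Among the 6 genes that flank or lie within the receptor cluster, 2 could be tested without drug. Map4k4, next to Il1r2, fell with reactivation by 1.01 ± 0.27 (adjusted p = 0.022) and under JQ1 by 1.03 ± 0.15 (adjusted p = 0.000629). No neighbour was called in either drug comparison by limma, with 1 gene tested for Flavopiridol, at an unadjusted p of 0.0298, and 2 for JQ1, of which 0 had an unadjusted p below 0.05.

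Across the 24 arrays the levels of Il18r1 and Il18rap had a Pearson r of 0.841, and those of Il18r1 and Il1rl1 an r of 0.468. Il18rap and Il1rl1 had an r of 0.676. Il1r1 and Il1r2 had an r of 0.699. Among 11819 genes above background on at least 12 arrays, the 5 with a pattern most like Il18r1 were Klrd1 (r = 0.967), Snx10 (r = 0.956), AA467197 (r = 0.942), Xdh (r = 0.933) and Hopx (r = 0.932). For Il1rl1 they were Lgalsl (r = 0.938), Ankrd39 (r = 0.935), Speer2 (r = 0.894), Snrpc (r = 0.894) and Mrpl33 (r = 0.893). The arrays share the naive reference and the cultures, so these coefficients describe the set of arrays only.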

How the data were processed

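The deposited scanner files hold median pixel intensity values for spots and for the background around them, in Cy3 and in Cy5, written per the file headers by Agilent Feature Extraction 10.7.1.1. They also held the software's log10 ratio of red over green, used as an alternative. A table of log2 ratios that the authors deposited as well was another alternative, and its normalization is not given in the sources used here. Its columns had r of 0.981 to 0.996 with the values computed here, and its scale and direction were the same (medians of -0.02 to 0.01).

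Intensities were corrected with normexp (offset 50), normalized within arrays by loess and turned to log2 of Cy3 over Cy5 in limma 3.58.1 (R 4.3.3). Control spots and flagged spots (234 to 331 an array) were left out. Probes were named through RefSeq (26448 of 55681 with 1 symbol). A gene was represented by its brightest probe. Probes not well above background gave bounds from Cy3 signals after Aquantile, which are open to dye bias without dye swaps. The median SD of Cy5 differences between arrays was 0.18 (log2). The number of arrays limits the precision.

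Reactivation was fitted with the pair as a block (3, 5 and 4 pairs). Drugs were fitted on 12 arrays with cell type and state as a block, the higher dose against DMSO. Genes needed Cy3 above background on 3 arrays, and calls were limma's Benjamini-Hochberg adjusted p below 0.05. The code was tested on simulated data. The 5 genes and all lists were chosen with earlier results of these data known. From each list up to 4 called genes per direction with the largest change, above background on at least as many arrays of the fit as not, could be named, together with the 5 genes most correlated with Il18r1 and with Il1rl1. Labels gave every sample its group. The columns of the deposited files that were not named above were not used. Alternatives were other centring, Cy3 alone, the software's ratio, normexp with offset 16, the deposited table, the mean of probes, other filters, the lower dose, 8 arrays, a slide block, no pair block and leaving out each pair. Each probe as its own row was added after the data were seen.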

Additional observations from a re-analysis of the deposited data

Results flagged for a closer look

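These 2 results stood out because the effect of Flavopiridol on Il1rl1 had opposite directions in groups of arrays, at both doses. In unstimulated cells the change was 2.66 to 2.96 in Th1 and -1.42 to -1.05 in Th2 cells, a difference of 4.05 between the means. Within Th1 cells it was 2.66 to 2.96 unstimulated and -0.92 to -0.43 reactivated, a difference of 3.48. Neither difference was tested. With the scanner software's ratio the change of reactivated Th1 cells at 1 µM was 0.10, and no other alternative turned a direction in these groups. The drug arrays of Th1 and of Th2 cells lay on separate slides, each apart from its controls, so in the first difference slide and drug cannot be told apart. In the second the 4 drug arrays shared a slide and both controls shared another, and the part of the slide in this difference was not tested. Of the mast cell markers, Cpa3 and Mcpt8 were above background on 0 of 24 arrays, and Kit was lower with 10 µM Flavopiridol, at -0.91 (limma adjusted p = 0.0274). Foxp3, a regulatory T cell marker, was called higher, at 1.06 (limma adjusted p = 0.000421), with a sign that turned under another scaling, and the other marker, Ikzf2, had a change of -0.35 that did not pass (limma adjusted p = 0.273). In unstimulated cells with 10 µM Foxp3 was at 0.47 in Th1 and 0.48 in Th2 cells. The part of regulatory T cells in the Il1rl1 change was not tested.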

How the results depend on the processing

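The Il18r1 change in reactivated Th2 cells with Flavopiridol turned from 1.23 to -0.25 (median centring), -1.03 (spike-in centring) and -0.43 (spike-in shift) at 1 µM, and from 1.43 to -0.11, -1.09 and -0.35 at 10 µM. Its mean over 4 combinations at 10 µM, 0.83, became -0.34, -0.92 and -0.30. The mean changes with 500 nM JQ1 kept their sign and grew with the software's ratio to -3.05 for Il18r1 and -3.65 for Il1rl1, and Il1rl1 was at -1.66 with all its probes averaged, closer to 0 than Il18rap. The cause of these shifts was not tested. Among all genes, 7319 calls for reactivation under JQ1 became 3849 (spike-in centring) and 3419 (spike-in shift). The 6077 calls for 10 µM Flavopiridol became 11296 and 9984, and the 6148 for 500 nM JQ1 became 44 at 50 nM. For reactivation under Flavopiridol the 14 calls became 79 (median centring), 1230 and 654 (spike-in), 1 (Cy3 alone), 1 (software's ratio), 7 (offset 16), 34 (all probes), 33 (above background on every array), 2 (no pair block), and 1 to 67 when a pair was left out. The share of calls that were higher moved too, from 43% with loess to 63.2% with spike-in centring for reactivation without drug, from 41.4% to 24.6% under JQ1, from 31.4% to 0.212% for 10 µM Flavopiridol and from 37.2% to 2.04% for 500 nM JQ1.

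Without the pair block Il18r1 missed the threshold for reactivation without drug (adjusted p = 0.602) and under JQ1 (adjusted p = 0.476), and Il1rl1 under JQ1 (adjusted p = 0.0507). Il1rl1 without drug missed it with the software's ratio (adjusted p = 0.0795), Il1r1 under JQ1 with both spike-in scalings (adjusted p = 0.234 and 0.404), and the second Il18r1 probe under JQ1 (adjusted p = 0.0542). Il18rap without drug passed with both (adjusted p = 0.00799 and 0.0276). The pairs were matched by condition, since the labels give no replicate numbers beyond 1 array a condition. Signals near background limit Il1r1, the second Il18r1 probe and the soluble-form Il1rl1 probe.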
